A study of Laccaria bicolor with 37 samples.

Results

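A set of 122 of the 23130 gene models of the ectomycorrhizal fungus Laccaria bicolor S238N was described, all of which had a higher transcript level in mycelium grown with poplar than in mycelium grown without it on both early sampling days. The level was the count scaled to the library total as CPM (1000000 times the count over the total), averaged over the libraries of a group, and a ratio compared 2 group means after 0.5 CPM was added to each. A gene model became a member when the ratio of mycelium on or near the root (EcM) to free-living mycelium (FLM) and the ratio of mycelium farther from the root (ExM) to FLM were both at least 2.5 at 3 days post inoculation (dpi) and again at 7 dpi, with a mean of at least 2 CPM in EcM at 7 dpi. A list of 9 gene models was set aside beforehand, and 0 of these 9 met the ratios. The members were thus chosen by their measured values at 3 and 7 dpi, which are given below as a description without a test, while the libraries of 14 and 21 dpi and of the start of the culture (T0) took no part in the choice.

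Roots of the hybrid poplar Populus tremula x alba clone 717-1B4 divided each co-culture plate, since mycelium harvested up to 0.5 cm from a root, with any root tissue in it, was EcM, and mycelium from farther away was ExM. FLM was harvested from plates on which no poplar had been placed. EcM had 3 libraries at each of 3, 7, 14 and 21 dpi, ExM had 3 at each day except for 2 at 14 dpi, and FLM had 3 at each day and 2 at T0, which makes 37 libraries of 13816157 to 36821709 counts. All of them came from 1 dikaryotic fungal strain and 1 plant clone on an agar medium. EcM held poplar tissue and was the only material extracted with polyethylene glycol in the buffer, so distance from the root, plant tissue and this buffer cannot be told apart when EcM is set against ExM or FLM. In bulk samples of this kind, fewer cells of a type and less RNA per cell cannot be told apart either. The tables hold gene models of the fungus alone, so no marker of mantle, Hartig net or poplar cells was used to check the labels.

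Ectomycorrhizal fungi wrap short lateral roots in a mantle of hyphae and then grow between the outer root cells to form the Hartig net, where nutrients and sugars are exchanged. Contact begins with hyphae that grow towards the root and attach to it, and both partners exchange diffusible signals before any symbiotic organ exists. Hyphae that do not touch the root stay connected to those that do and forage in the substrate. Fungi answer signals from outside through phosphatases, kinases and calcium-dependent regulators, and transcription factors of the bZIP and zinc cluster families switch on target genes for stress defence and secondary metabolism.

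A function within the groups listed next was given to 54 of the 122 members. It came from the annotations of the study or, for 3 of these, from a counterpart in the mushroom Coprinopsis cinerea. They were 14 oxidoreductases and other redox enzymes, 9 F-box, cyclin or RING proteins, 8 phosphatases, kinases and other signalling proteins, 7 transcription factors, 5 transporters, 4 enzymes of terpene and phenylpropanoid metabolism, 3 small secreted proteins, 2 lipid and acyl enzymes, 1 protease and 1 small heat shock protein. The other 68 had no function given or one outside these groups. The median transcript length was 1092 bases for the members and 1200 bases for the 13285 gene models with a mean of at least 2 CPM in any group. All 122 members passed the low-count filter, which kept 15533 gene models for testing. Just inside the ratio limit lay gene models 695593, 583855 and 655168 with a smallest early ratio of 2.51, 2.51 and 2.54, and just outside it lay 458999, 649610 and 676300 with 2.49, 2.48 and 2.47.

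The libraries of a co-culture group differed widely from each other in the level of the members. Set against the FLM mean of the same day, the median member stood at 4.93, 7.02 and 2.69 in the EcM libraries of 3 dpi (replicates 1, 2 and 3) and at 2.39, 6.51 and 4.89 in those of ExM. At 7 dpi it stood at 10.1, 2.34 and 3.39 in EcM and at 1.90, 6.35 and 7.73 in ExM, while the FLM libraries of 3 to 21 dpi lay between 0.913 and 1.03. Replicate 1 was thus the highest EcM library of 7 dpi, in 122 of 122 members, and the lowest ExM library of the same day, also in 122 of 122. At 3 dpi EcM replicate 3 was the lowest EcM library in 122 members and ExM replicate 1 the lowest ExM library in 121. The median SD of the log2 level within a group was 1.09 in EcM and 1.08 in ExM at 7 dpi for the members, against 0.18 and 0.14 for all gene models tested. Whether a library held more or fewer responding hyphae was not tested. When EcM replicate 1 of 7 dpi was left out, 75 of the 122 still met the rule, a choice made after the data were seen. Any other single library of 3 or 7 dpi left between 98 and 133 gene models.

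**Figure D1:**
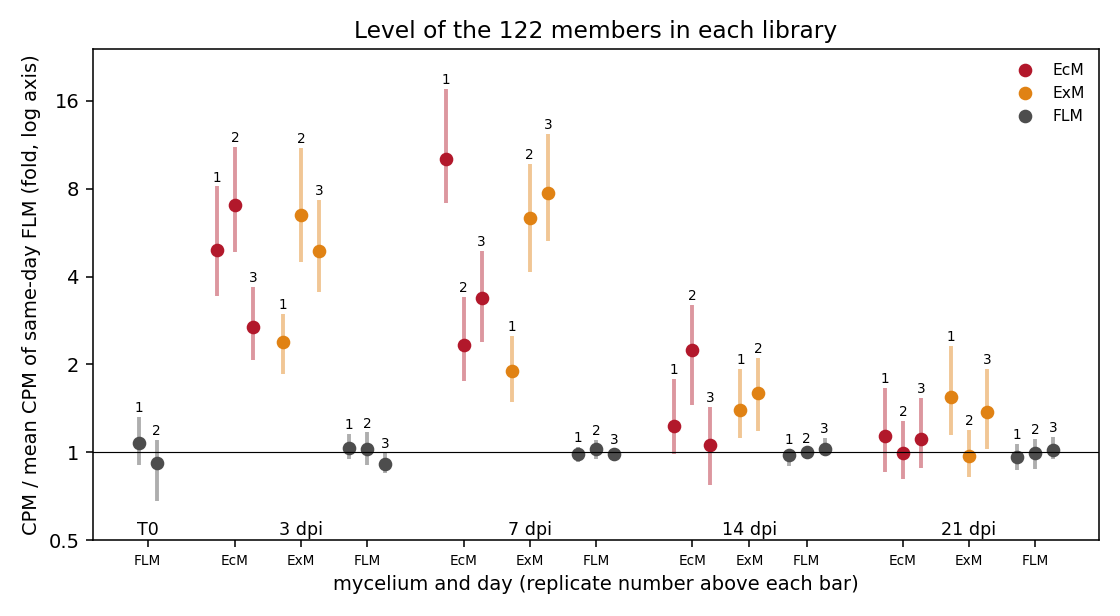
Level of the members in each library. Each point is the median over the 122 members of the CPM divided by the mean CPM of FLM on the same day (T0 against its own mean, log axis), each bar spans the middle 50% of the members, and the digit above it is the replicate number. EcM and ExM libraries of 3 and 7 dpi lie between 1.90 and 10.1 and far apart within a group, and those of 14 and 21 dpi lie between 0.970 and 2.24.

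Taken as group means, the members had a median ratio to FLM of 4.76 in EcM and 4.56 in ExM at 3 dpi, and of 5.65 in EcM and 5.45 in ExM at 7 dpi. Every EcM library lay above every FLM library in 118 members at 3 dpi and in 120 at 7 dpi, and for ExM in 120 and 115 members. Over all gene models tested this held for 7.88% and 10.4% in EcM and for 7.09% and 8.72% in ExM, and nothing is read from the difference because these libraries chose the members. The median ratio of EcM to ExM was 1.06 at 3 dpi and 1.02 at 7 dpi. Levels of different genes can be compared only per length, and as RPKM, reads scaled to transcript length and library size, the members spanned 3.33 to 833.5 in EcM at 7 dpi with a median of 83.4, against a median of 12.1 in FLM. The most abundant per length was gene model 704717, a small secreted protein, at 833.5 RPKM, followed by 610516, a calcipressin, at 772 RPKM.

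The 7 transcription factors included the member with the largest ratio at 3 dpi, gene model 395214, listed as a bZIP factor in one annotation and as a small secreted protein in another. Proteins of the bZIP family bind DNA through a basic region next to a leucine zipper. Its level was 352, 436 and 157 CPM in EcM and 171, 400.0 and 251 CPM in ExM at 3 dpi, against 4.32, 7.14 and 1.83 CPM in FLM. At 7 dpi it was 648, 194 and 266 CPM in EcM and 144, 526 and 513 CPM in ExM, against 2.58, 2.48 and 2.55 CPM in FLM. The groups with a plant thus lay far above FLM in each library, and the ratios at 7 dpi were 122 in EcM and 130 in ExM.

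Gene model 292029, a fungal transcription factor of the zinc cluster type, had the highest mean CPM, not corrected for transcript length, of all members in EcM at 7 dpi. Its level there was 1766, 144 and 370 CPM in EcM and 64.0, 794 and 1074 CPM in ExM, against 28, 33.1 and 29.3 CPM in FLM, and the ratios were 24.8 and 21.0. At 14 dpi EcM held 23.3, 143 and 16.3 CPM and ExM 34 and 47.2 CPM, against 23.4, 21.7 and 21.3 CPM in FLM. EcM replicate 2 alone was high on that day, and the other EcM libraries reached the range of FLM or lay below it. A pair of TEA/ATTS factors, the family of the regulators of fungal development AbaA and TEC1, had ratios at 3 dpi of 9.64 in EcM and 8.08 in ExM (298274) and of 4.75 and 3.93 (656449). The remaining 3 factors were the fungal transcription factors 668161 and 393526 and the C2H2 zinc finger protein 691497, with 7 dpi ratios of 3.04 to 6.81 in EcM and of 3.11 to 4.90 in ExM.

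Among the enzymes of secondary metabolism, terpene synthase 394925 had the largest EcM ratio of all members at 7 dpi. Terpene synthases close prenyl diphosphates into the carbon skeletons of terpenes, many of which are volatile. The level of 394925 at 7 dpi was 942, 62.8 and 110 CPM in EcM and 24.4, 246 and 470 CPM in ExM, against 2.54, 1.83 and 2.25 CPM in FLM, with ratios of 137 in EcM and 91.4 in ExM. The second terpene synthase among the members, 312850, stood at 268, 28 and 40.7 CPM in EcM and at 13.1, 90.8 and 125 CPM in ExM, against 7.77, 6.89 and 8.83 CPM in FLM on that day. Both kept the same order of libraries, with EcM replicate 1 and ExM replicate 3 highest, as in most members. Gene model 291120, annotated as a phenylalanine or histidine ammonia-lyase, had 7 dpi ratios of 5.22 in EcM and 2.92 in ExM. Ammonia-lyases of this kind remove the amino group of an aromatic amino acid. For 628979, annotated as a 4-coumarate-CoA ligase, an enzyme type that links phenolic acids to coenzyme A, the ratios were 3.68 in EcM and 3.44 in ExM.

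Of the 8 signalling proteins, 3 were protein-tyrosine phosphatases, which remove phosphate from tyrosine residues of other proteins. Gene model 673052 had 534, 45.2 and 77.4 CPM in EcM and 18.5, 200.3 and 305 CPM in ExM at 7 dpi, against 1.93, 3.42 and 1.93 CPM in FLM. Gene model 183494 had 498, 24.5 and 55.2 CPM in EcM and 12.3, 171 and 273 CPM in ExM, against 1.69, 3.32 and 2.36 CPM in FLM. In EcM the ratios of these 2 phosphatases at 7 dpi reached 74.9 and 65.3, and in ExM 59.8 and 51.6. Their values at 7 dpi ran in the same order of libraries in EcM and in ExM. This order was common among the members, with EcM replicate 2 lowest in 111 and ExM replicate 3 highest in 105. Since a read could be placed on up to 10 transcripts, reads shared between similar copies of a phosphatase may have been split, and the 2 may not be independent. The third phosphatase, 463346, had smaller ratios at 7 dpi, of 6.14 in EcM and 5.51 in ExM.

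Calcipressins regulate calcineurin, the phosphatase that answers calcium signals. The calcipressin 610516 had 1170.5, 209.5 and 288 CPM in EcM and 166, 659 and 795 CPM in ExM at 7 dpi, against 47.9, 52.6 and 46.7 CPM in FLM. Its ratios were 11.2 in EcM and 10.9 in ExM on that day and 8.63 and 7.91 at 3 dpi. The other 4 signalling members, among them a protein phosphatase 2C (436708), a serine/threonine protein kinase (691907) and a response regulator of the pH signalling type (478829), had ratios at 7 dpi of 2.90 to 3.18 in EcM and of 2.81 to 3.35 in ExM.

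F-box proteins select other proteins for ubiquitin-dependent degradation. Of the 9 members of the F-box, cyclin and RING group, the highest per length in RPKM was 582420, known only by its Coprinopsis counterpart, at 661.5 RPKM in EcM at 7 dpi. Its level was 921, 405 and 472 CPM in EcM and 283, 665 and 677 CPM in ExM, against 51.5, 54.6 and 53.2 CPM in FLM. The cyclin 658958 had 1012, 471 and 506 CPM in EcM and 359.6, 740.5 and 814 CPM in ExM on that day, against 115, 88.9 and 105 CPM in FLM. F-box gene models 477341 and 704262 had 7 dpi ratios of 11.7 and 8.72 in EcM and of 11.1 and 7.76 in ExM. The group medians at 7 dpi were 6.14 in EcM and 6.06 in ExM.

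The 14 redox enzymes had median ratios at 7 dpi of 6.72 in EcM and 5.80 in ExM. Cu/Zn superoxide dismutase, which turns superoxide into hydrogen peroxide and oxygen, was represented by LbCu/ZnSOD (303799). It had 109, 24.2 and 26.9 CPM in EcM and 19.3, 60.2 and 71.3 CPM in ExM at 7 dpi, against 5.76, 7.93 and 5.38 CPM in FLM. The 2-nitropropane dioxygenase 467898, of an enzyme family that oxidises nitroalkanes, had its larger ratios at 3 dpi, 17.2 in EcM and 19.2 in ExM, with 8.38 and 8.11 at 7 dpi. A short-chain dehydrogenase (467638) had 7 dpi ratios of 9.99 in EcM and 10.3 in ExM, and a TauD-type dioxygenase (184002) had 6.85 and 6.23.

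A pair of zinc-binding alcohol dehydrogenases departed from the common order of libraries. Gene model 691339 had 72.9, 31.8 and 14.1 CPM in EcM and 10.7, 9.62 and 10.6 CPM in ExM at 3 dpi, against 3.40, 3.85 and 3.60 CPM in FLM. Its EcM to FLM ratio was 9.74 and its ExM to FLM ratio 2.63, so EcM exceeded ExM by the largest factor of any member on that day, 3.71. Alcohol dehydrogenase 660224 and the major facilitator transporter 304796 likewise had more CPM in EcM replicate 1 than in replicate 2 at 3 dpi, which held for 5 members in all. At 21 dpi the same 3 were at least 2 times higher in EcM replicate 2 than in both other EcM libraries, as was the factor 393526. For 660224 the EcM libraries of 21 dpi had 7.03, 61.9 and 4.35 CPM and those of ExM 18.4, 35.5 and 9.49 CPM, against 2.70, 6.49 and 9.43 CPM in FLM. This pattern was singled out after the values were seen.

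Hsp20, a small heat shock protein that binds unfolded proteins, was represented by 384818. It had 765, 50.5 and 157 CPM in EcM and 26.2, 286 and 442 CPM in ExM at 7 dpi, against 14.8, 13.1 and 13.8 CPM in FLM, and ratios of 22.5 in EcM and 17.5 in ExM. Small secreted proteins of mycorrhizal fungi can act on the plant cell, and 704717 had 959.6, 261 and 352 CPM in EcM and 193, 594 and 709.9 CPM in ExM, against 25.9, 26.8 and 25.4 CPM in FLM on the same day. Of the 5 transporters, the ABC transporter 671922 had the largest ratios at 7 dpi, 16.7 in EcM and 12.2 in ExM. An aspartyl protease, LbPR_A1 (302848), had 7.00 in EcM and 5.78 in ExM.

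Of the members without a given function, 602767 had the largest EcM ratio at 7 dpi. Its level was 167, 27.9 and 43.9 CPM in EcM and 17, 94.0 and 97.1 CPM in ExM at 7 dpi, against 0.926, 1.24 and 1.22 CPM in FLM, with ratios of 49.1 in EcM and 42.9 in ExM. By mean CPM in EcM at 7 dpi, which is not corrected for transcript length, 705377 was the highest of them. It had 1141, 342 and 388 CPM in EcM and 250.1, 756 and 829.6 CPM in ExM on that day, against 28.4, 25.5 and 26.6 CPM in FLM. Gene model 696498 had 1121, 302 and 368 CPM in EcM, against 46.6, 53.2 and 46.6 CPM in FLM, with ratios of 12.1 in EcM and 14.4 in ExM. For 704758 the ratios were 4.54 in EcM and 4.32 in ExM, and for 604283, one of the 10 largest in EcM, 21.3 and 30.1. The 68 members with no function given or one outside the listed groups had medians at 7 dpi of 5.13 in EcM and 5.33 in ExM.

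**Figure D2:**
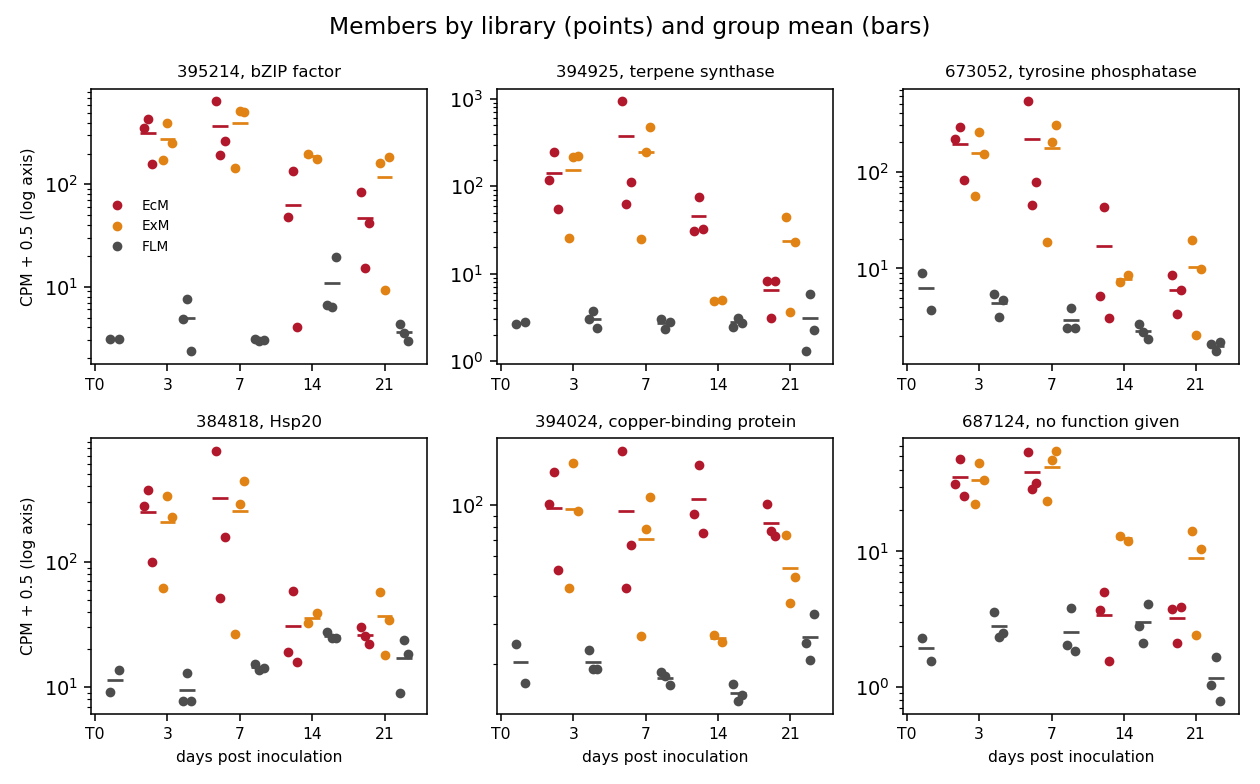
Levels of 6 members in every library. The y axis is CPM + 0.5 on a log axis, the x axis gives T0 and the days post inoculation, points are libraries of EcM, ExM and FLM (from left to right at each day) and bars are group means. The bZIP factor 395214 stays above FLM at 21 dpi, Hsp20 384818 has EcM libraries below and above FLM at 14 dpi, the copper-binding protein 394024 has EcM libraries above ExM and FLM at 14 dpi, and 687124 is higher in ExM than in EcM at 14 dpi.

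The question put to the later days was whether the members stayed high or returned to the level of FLM. The median member came closer to FLM on both days but stayed above it. The highest group mean of a member fell on an early co-culture group in 117 of 122 cases, namely in EcM at 7 dpi for 56, in ExM at 7 dpi for 37, in ExM at 3 dpi for 13 and in EcM at 3 dpi for 11. The rule asked for high values in these groups, so this count was largely set by the choice and nothing is read from it. The mean CPM at 14 dpi was lower than that at 7 dpi in 118 members in EcM and in 121 in ExM, with median ratios of 14 to 7 dpi of 0.275 and 0.296. In FLM the same ratio had a median of 1.07. Over the 13285 gene models with a mean of at least 2 CPM in any group, the medians were 1.00 in EcM and 1.06 in ExM. Since the 7 dpi values chose the members, part of such a fall is set by the choice, and no test was made. As ratios to FLM, the medians were 1.52 in EcM and 1.49 in ExM at 14 dpi and 1.10 in EcM and 1.35 in ExM at 21 dpi. A ratio of 2.5 was still reached by 22 members in EcM and 20 in ExM at 14 dpi, and by 11 in EcM and 22 in ExM at 21 dpi. Over all gene models tested, 1.96% and 0.251% reached it at 14 dpi and 0.811% and 0.515% at 21 dpi. Gene models 395214, 602767 and 673052 reached 2.5 in all 4 late ratios, 66 members stayed under 2 in all 4, and 457444 and 693825 were below 1 in all 4. For these counts the share over all gene models was not computed, so nothing is read from them.

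**Figure D3:**
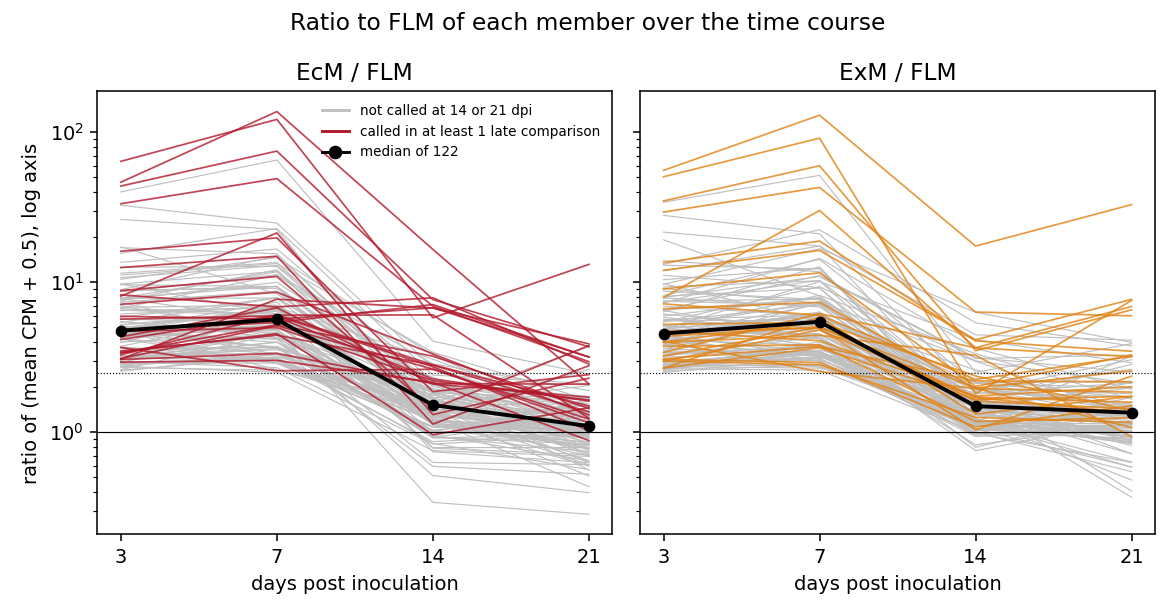
Ratio to FLM of each member over the time course, for EcM and for ExM. The y axis is the ratio of group mean CPM + 0.5 on a log axis, thin lines are members (coloured where the member was called in at least 1 comparison with FLM at 14 or 21 dpi), the black line is the median and the dotted line the limit of 2.5. The medians fall to 1.52 in EcM and 1.49 in ExM at 14 dpi, while gene model 395214 remains at 13.2 in EcM and 33 in ExM at 21 dpi.

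At 14 dpi 21 of the 122 members were higher in EcM than in FLM and 0 were lower, that is 17.2% higher and 0% lower, against 4.03% and 2.77% of all 15533 gene models tested. The test was edgeR's quasi-likelihood test, and calls had an adjusted p (Benjamini-Hochberg) under 0.05 and a change of at least 1 in either direction on the log2 scale. The median log2 fold change was 0.84 over the members and -0.01 over all gene models tested, and every EcM library lay above every FLM library in 53 members (43.4%) and below in 6, against 16.0% above and 39.4% below among all. With TMM scaling, which corrects for libraries dominated by few genes, these were 65 and 4 members, against 26.5% and 26.2% of all. The count rested in part on single libraries, since 8 were called without EcM replicate 2, 10 without FLM replicate 2 and 29 without EcM replicate 3. EcM replicate 2 was the highest of its group in 115 of 122 members (94.3%), against 39.5% of all gene models tested, and it was the library with the fewest counts of the 37.

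Terpene synthase 394925 was among the members called higher in EcM at 14 dpi. It had 30.2, 73.9 and 31.6 CPM in EcM, against 1.92, 2.62 and 2.25 CPM in FLM, which gave a log2 difference of 4.45 ± 1.18 (SE, edgeR adjusted p = 0.0054). ExM had 4.41 and 4.54 CPM on that day (1.03 ± 1.41, edgeR adjusted p = 0.99), and the fit of only these 2 groups called it higher (1.01 ± 0.20, edgeR adjusted p = 0.017). At 21 dpi 394925 had 7.78, 2.58 and 7.77 CPM in EcM, against 0.781, 5.32 and 1.74 CPM in FLM, and these overlapping groups were not called (1.37 ± 1.26, edgeR adjusted p = 0.43). The copper-binding protein 394024, annotated with electron transport, had 91.1, 150.3 and 75.2 CPM in EcM, against 15.8, 13.3 and 14.1 CPM in FLM (3.02 ± 0.55, edgeR adjusted p = 0.00016). Gene model 487500, with no function given, had 13.1, 17.3 and 10.03 CPM in EcM, against 1.78, 1.84 and 1.80 CPM in FLM (3.04 ± 0.46, edgeR adjusted p = 1.23e-05). The EcM and FLM libraries of these 3 genes did not overlap. For 394024 and 487500 all EcM libraries of 14 dpi also lay above EcM replicates 2 and 3 of 7 dpi.

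The largest change at 14 dpi, 4.62 ± 0.81, belonged to gene model 602150 (edgeR adjusted p = 8.73e-05), a gene of low level with 3.88, 9.70 and 1.94 CPM in EcM, against 0.234, 0.226 and 0.200 CPM in FLM. Phenylalanine or histidine ammonia-lyase 291120 had 54.4, 102 and 47.7 CPM in EcM, against 19.3, 20.7 and 22.5 CPM in FLM, and rose by 1.86 ± 0.58 (edgeR adjusted p = 0.017). Tyrosine phosphatase 673052 was called with a change of 3.37 ± 1.22 (edgeR adjusted p = 0.037), yet EcM had 4.75, 42.8 and 2.55 CPM against 2.20, 1.68 and 1.35 CPM in FLM, so its mean was carried by replicate 2. The bZIP factor 395214 was called with 2.76 ± 0.96 (edgeR adjusted p = 0.030) from 47.8, 134 and 3.55 CPM in EcM and 6.08, 5.79 and 18.9 CPM in FLM, and the 2 groups overlapped. Gene model 691716, with no function given, had 13.3, 31.1 and 5.87 CPM in EcM, against 1.26, 2.49 and 2.40 CPM in FLM, and was called with 3.15 ± 0.70 (edgeR adjusted p = 0.0012). By function, the calls held 2 of 4 terpene and phenylpropanoid enzymes, 2 of 8 signalling proteins, 3 of 14 redox enzymes, 1 of 7 transcription factors, 1 of 3 small secreted proteins and 12 of the 68 other members. Calls in the F-box, cyclin and RING group numbered 0 of 9 and among transporters 0 of 5.

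In ExM at 14 dpi 0 members were called against FLM by edgeR, with 0.0451% called higher among all gene models tested, and 29 members (23.8%) had an unadjusted p under 0.05, all of them with higher values in ExM, against 3.80% of all. DESeq2 called 8 members higher (0.231% of all it tested), and an edgeR fit of only the libraries of ExM and FLM at 14 dpi called 34 higher (0.425% of all). The median log2 fold change of the members was 0.69, against 0.01 over all gene models tested, and both ExM libraries lay above all FLM libraries in 92 members (75.4%), against 12.2% of all. The median SD of the members within a group was up to 1.09 on the log2 scale in the early co-culture groups, which the fit of all libraries also used, and 0.13 in ExM and 0.13 in FLM at 14 dpi. The part of this spread in the difference between the fits was not tested. Gene model 395214 had 197 and 178 CPM in ExM, against 6.08, 5.79 and 18.9 CPM in FLM, a log2 fold change of 4.27 ± 1.05 with an edgeR adjusted p of 0.19 in the fit of all libraries. For calcipressin 610516, ExM had 108 and 118 CPM, against 36.7, 37 and 34.4 CPM in FLM, with 1.71 ± 0.71 and an edgeR adjusted p of 0.73. In the fit of these groups alone its change was 1.69 ± 0.06 (edgeR adjusted p = 1.76e-08). Small secreted protein 704717 had 130.5 and 144 CPM in ExM, against 32.2, 30.3 and 37.6 CPM in FLM, with 2.09 ± 0.09 (edgeR adjusted p = 4.90e-08) in that fit. The 34 included 5 of 9 F-box, cyclin and RING proteins, 3 of 8 signalling proteins and 0 of 7 transcription factors.

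At 21 dpi 9 members were higher in EcM than in FLM and 0 lower (7.38% higher, against 2.12% higher and 3.52% lower among all gene models tested), and 8 were higher in ExM than in FLM and 0 lower (6.56% higher, against 0.998% higher and 0.657% lower). The median log2 fold changes were 0.28 for EcM and 0.40 for ExM, against -0.01 and 0.01 over all gene models tested, and both comparisons used the same FLM libraries. Without single libraries the EcM count lay between 4 (without EcM replicate 1 or without FLM replicate 3) and 9, with 5 without FLM replicate 1. The ExM count was 2 without ExM replicate 1 or FLM replicate 1, 3 without ExM replicate 3 or FLM replicate 3, and 16 without ExM replicate 2. In ExM the median member stood at 1.55, 0.970 and 1.37 times the FLM mean in replicates 1, 2 and 3, so replicate 2 was at the level of FLM. The fit of ExM and FLM at 21 dpi alone called 5 higher and 2 lower (0.562% and 0.411% of all it tested), and 0 of these were among the 8.

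The bZIP factor 395214 had the largest change in both mycelia at 21 dpi. It had 84.6, 14.7 and 41.4 CPM in EcM and 161, 8.79 and 185 CPM in ExM, against 3.84, 3.00 and 2.47 CPM in FLM. Every library with a plant lay above every FLM library. The log2 fold changes were 4.07 ± 1.09 in EcM (edgeR adjusted p = 0.0048) and 5.21 ± 1.11 in ExM (edgeR adjusted p = 0.0022). Gene model 687124, with no function given, had 3.24, 1.60 and 3.37 CPM in EcM and 13.6, 1.94 and 9.90 CPM in ExM, against 0.540, 1.17 and 0.290 CPM in FLM, and rose by 2.22 ± 0.80 (edgeR adjusted p = 0.032) and 3.63 ± 0.72 (edgeR adjusted p = 0.0010). Small secreted protein 704717 had 57.1, 37.1 and 54.3 CPM in EcM and 94.8, 25.7 and 92.6 CPM in ExM, against 15.6, 24.1 and 20.7 CPM in FLM, with 1.44 ± 0.55 (edgeR adjusted p = 0.042) and 1.77 ± 0.55 (edgeR adjusted p = 0.030). Another small secreted protein, 300552, was called in EcM at both late days, with 1.24 ± 0.39 at 14 dpi (edgeR adjusted p = 0.016) and 1.22 ± 0.38 at 21 dpi (edgeR adjusted p = 0.014). The ATP-NAD kinase 633509, which makes NADP from NAD, was called in ExM at 21 dpi with 1.33 ± 0.41 (edgeR adjusted p = 0.029). Gene model 604283 was called in ExM with 3.10 ± 0.92 (edgeR adjusted p = 0.023) from 20.0, 2.35 and 19.1 CPM, against 1.80, 2.16 and 0.774 CPM in FLM. Transporter 304796 was called in EcM with 2.18 ± 0.84 (edgeR adjusted p = 0.044) from 11.02, 39.4 and 7.96 CPM, against 4.08, 5.55 and 4.69 CPM in FLM.

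Over both late days 6 members (4.92%) were called higher in EcM at 14 and at 21 dpi, 15 (12.3%) at 14 dpi alone, 3 (2.46%) at 21 dpi alone and 98 on neither day, against 1.45% of all gene models tested on both days, 2.58% at 14 dpi alone and 0.663% at 21 dpi alone. In the fit of all libraries, 26 members (21.3%) were higher than FLM in at least 1 of the 4 late comparisons, 0 were lower and 96 were called in none. Among all gene models tested 5.14% were higher in at least 1 of the 4 and 5.61% lower. Gene models 395214 and 602150 were called in 3 of the 4. The fits of only EcM and FLM called 1 member lower at 14 dpi (458 of all 14699 tested) and 2 at 21 dpi (431 of 14320). DESeq2 called 1 member lower in EcM at 21 dpi (534 of 15322). The difference between days was tested as the effect at 21 dpi minus that at 14 dpi. For EcM 1 member had a smaller effect at 21 dpi and 0 a larger one (1.31% and 0.270% of all gene models tested), and for ExM 0 members differed by edgeR (0.670% of all smaller and 0.483% larger), with 4 (3.28%) smaller at an unadjusted p under 0.05, against 9.21% of all, and 1 smaller by DESeq2 (0.995% of all it tested). The single call was 487500, with a difference of -2.57 ± 0.62 on the log2 scale (edgeR adjusted p = 0.016). Its EcM libraries had 7.37, 7.88 and 9.97 CPM at 21 dpi, against 5.83, 5.71 and 8.51 CPM in FLM, and its FLM level at 14 dpi was the lower of the 2 days.

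**Figure D4:**
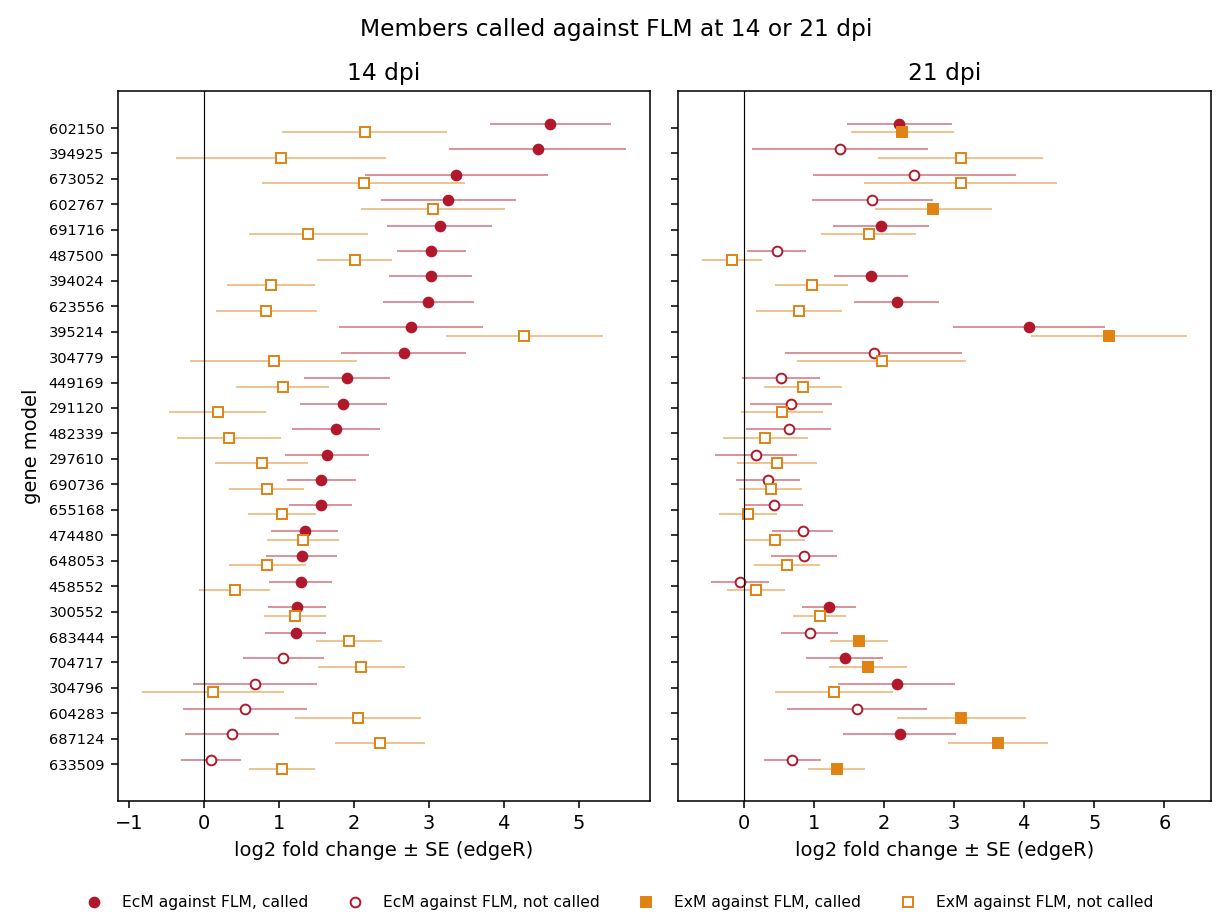
Log2 fold changes ± SE from edgeR of the 26 members called against FLM at 14 or 21 dpi, ordered by the EcM change at 14 dpi. Circles are EcM and squares ExM, and filled symbols are calls. Filled circles number 21 at 14 dpi and 9 at 21 dpi, filled squares 0 at 14 dpi and 8 at 21 dpi, and gene model 395214 has the largest change of both mycelia at 21 dpi.

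EcM and ExM were then set against each other at the late days. At 14 dpi 3 members (2.46%) were higher in EcM and 2 (1.64%) lower, against 3.02% and 2.59% of all gene models tested. The members were thus not called more often than gene models at large, and the median log2 difference was 0.06. The copper-binding protein 394024 had 91.1, 150.3 and 75.2 CPM in EcM, against 26.5 and 24.5 CPM in ExM, a difference of 2.14 ± 0.62 (edgeR adjusted p = 0.014). Gene model 623556 had 39.7, 60.7 and 33.3 CPM in EcM, against 9.92 and 11.2 CPM in ExM (2.16 ± 0.68, edgeR adjusted p = 0.023), and 602150 was the third member called higher (2.48 ± 0.79, edgeR adjusted p = 0.023). In the opposite direction, 687124 had 3.23, 4.49 and 1.05 CPM in EcM, against 12.5 and 11.4 CPM in ExM (-1.98 ± 0.61, edgeR adjusted p = 0.020). Gene model 592578 had 1.53, 1.88 and 0.997 CPM in EcM, against 7.08 and 6.98 CPM in ExM (-2.19 ± 0.73, edgeR adjusted p = 0.030). These calls depended on both of the 2 ExM libraries. Without EcM replicate 2, 0 members were called higher and 2 lower, and 1 of these was among the 5. Of all 15537 gene models tested in that fit, 396 were higher and 299 lower. In the fit of all libraries terpene synthase 394925 missed the threshold with 3.42 ± 1.32 (edgeR adjusted p = 0.062), although its EcM and ExM libraries did not overlap. The fit of only these 2 groups called it (3.43 ± 0.71, edgeR adjusted p = 0.047).

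At 21 dpi 2 members (1.64%) were higher in EcM than in ExM and 0 lower, against 1.44% and 2.95% of all gene models tested. The share called higher was thus near that of all gene models. The TEA/ATTS factor 656449 had 206, 218 and 241 CPM in EcM, against 89.5, 92.0 and 103 CPM in ExM, a difference of 1.41 ± 0.34 (edgeR adjusted p = 0.0018). Gene model 678241 had 779, 837 and 863 CPM in EcM, against 290.1, 316 and 314 CPM in ExM (1.61 ± 0.47, edgeR adjusted p = 0.0088). FLM of that day had 166, 131 and 189.8 CPM of 656449 and 638, 475 and 806 CPM of 678241, so for both genes FLM was nearer to EcM than to ExM. Without ExM replicate 2 the same 2 were called higher and 3 others lower (225 and 500 of all 15545 tested in that fit). DESeq2 called 3 higher and 2 lower (235 and 460 of 16026). The fit of only these groups called 3 higher and 4 lower (189 and 386 of 14357). EcM and ExM were compared as unpaired libraries, and whether those of the same replicate number were paired could not be told.

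A ratio to FLM also moves when FLM itself changes with the age of the culture, so FLM was compared with T0. At 14 dpi 2 members (1.64%) were higher and 7 (5.74%) lower than at T0, against 3.30% and 4.56% of all gene models tested. At 21 dpi 10 (8.20%) were higher and 4 (3.28%) lower, 14 in all (21.3% of all called in either direction). The 2 T0 libraries differed, with replicate 1 at least 2 times higher than replicate 2 in 30 members (24.6%), against 5.89% of all gene models tested. Without T0 replicate 1, 2 members were called at 14 dpi, neither of them among the 9, and 2 of the 7 called lower changed sign. LbCu/ZnSOD 303799 had 2.38, 3.49 and 2.20 CPM at 14 dpi, against 15 and 5.59 CPM at T0, and fell by 1.97 ± 0.78 on the log2 scale (edgeR adjusted p = 0.049). Gene model 623556 fell at both days, by 2.22 ± 0.64 at 14 dpi (edgeR adjusted p = 0.0082) and by 2.00 ± 0.65 at 21 dpi (edgeR adjusted p = 0.011). In FLM of 21 dpi 656449 was higher than at T0 by 1.88 ± 0.40 (edgeR adjusted p = 0.00027) and 678241 by 2.59 ± 0.57 (edgeR adjusted p = 0.00041). Gene models 700937 and 595446, both with no function given, were higher by 2.90 ± 0.76 (edgeR adjusted p = 0.0022) and 2.80 ± 1.16 (edgeR adjusted p = 0.043). The largest decrease in FLM of 21 dpi was that of 708176, with 11.2, 16.97 and 11.1 CPM, against 100.02 and 57.3 CPM at T0 (-2.55 ± 0.62, edgeR adjusted p = 0.0011). The F-box gene model 314670 changed by -2.13 ± 0.64 (edgeR adjusted p = 0.0068). For 395214 FLM had 3.84, 3.00 and 2.47 CPM at 21 dpi, against 2.59 and 2.58 CPM at T0.

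Other gene models of the same families were looked up by keyword in the annotations at hand, which are not complete. They include shortened lists of genes that the study reported as regulated, so the share of a family called is not independent of these libraries, and nothing is read from it. Of 4 terpene synthases listed 2 were members, and the other two, 331339 and 468421, had EcM to FLM ratios at 7 dpi of 1.92 and 1.16. Of 4 protein-tyrosine phosphatases listed 3 were members, and the fourth, 598985, had 1.87. LbCu/ZnSOD was the only member among 4 superoxide dismutases, whose other three had ratios of 0.740 to 0.925, and 395214 was the only member among 7 bZIP factors, whose other six had 0.767 to 1.64. The share of members was 5 of 32 F-box proteins, 2 of 15 alcohol dehydrogenases, 5 of 248 small secreted proteins, some of them grouped above by another function, 2 of 69 major facilitator transporters and 0 of 15 cytochromes P450. At 14 dpi in EcM against FLM, 26 of 68 major facilitator transporters tested were called higher and 0 lower, and 7 of 15 cytochromes P450 were called higher and 1 lower, against the 4.03% and 2.77% of all gene models tested. Of the terpene synthases 2 of 4 were called higher, of the superoxide dismutases 0 of 4 in either direction, and of the small secreted proteins 51 of 223 tested were called higher and 9 lower.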

How the data were processed

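RNA-seq was performed on 37 libraries of L. bicolor, grouped by mycelium and day from the sample labels, which call the libraries of a group biological replicates. The authors made stranded mRNA libraries and mapped paired reads in CLC Genomics Workbench against the L. bicolor transcript set of the Joint Genome Institute, where a read could have up to 10 hits. The deposited tables hold the raw read count of each of 23130 gene models, which the authors did not normalize, and RPKM values, which the authors computed from transcript length and library size. Whether the count is of unique or of all placed reads is not given in the sources used here, so counts of near-identical copies are uncertain. The submitters' processing notes also name DESeq2.

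Totals ran from 13816157 to 36821709 counts. CPM was the raw count over the library total. RPKM served to compare genes per length and to derive transcript lengths. The members and all gene lists were chosen with earlier results of these data known. Counts were tested with edgeR 4.0.16 in R 4.3.3 (filterByExpr by group, TMM, robust quasi-likelihood fit of all 37 libraries with 1 coefficient per group, two-sided), with Benjamini-Hochberg adjustment over the 15533 gene models kept. A call needed an adjusted p under 0.05 and a change of 1 or more in either direction on the log2 scale. Standard errors were derived from the F values. All pairs of libraries within a group differed by more than sampling noise (lowest ratio of chi-square to its degrees of freedom 4.59).

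The text names members by role, not all of them, from those with a function, the 10 highest by EcM mean CPM and the 10 highest by EcM ratio at 7 dpi, the 5 largest calls in each direction of each tested comparison, those nearest the ratio limit and those that share an annotation. Of the 122 members 35 matched the RefSeq gene table of the fungus by number, 2 of them with a symbol. Alternatives were median-of-ratios size factors, no filter, DESeq2 1.42.0, a fit restricted to the groups compared, a replicate block, each library left out in turn, and other settings of the rule. Deviations of libraries with the same number correlated at 0.205 to 0.263 in all 3 pairs of EcM and ExM at 21 dpi. The other comparisons of 3 pairs did not reach this range in all pairs. The 2 same-number pairs of FLM at 21 dpi and T0 reached 0.206 and 0.282, and those of EcM and ExM at 14 dpi had -0.126 and -0.063. Libraries of unlike number, ExM replicate 2 and FLM replicate 1 of 21 dpi, reached 0.264. Whether libraries of the same number were paired can therefore not be told from these values. The main fit had no term for pairing. The replicate block applied the replicate number across all groups and days, and not within EcM and ExM of 21 dpi alone. The fit was tested on simulated data.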

Additional observations from a re-analysis of the deposited data

Results flagged for a closer look

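Gene model 487500, with no function given, was called for a difference of the EcM effect between the late days. The EcM effect at 21 dpi minus that at 14 dpi was -2.57 on the log2 scale (SE 0.62, edgeR adjusted p = 0.016), with EcM effects of 0.47 ± 0.42 at 21 dpi and 3.04 ± 0.46 at 14 dpi. EcM had 7.37 to 9.97 CPM at 21 dpi, against 5.71 to 8.51 CPM in FLM, and 10.03 to 17.3 CPM at 14 dpi, against 1.78 to 1.84 CPM in FLM. FLM at 14 dpi also lay below T0, by 2.05 on the log2 scale (edgeR adjusted p = 0.0020). Without FLM replicate 3 of 21 dpi the difference was not called. In the fit of only the groups compared 8 members were called, all with the smaller effect at 21 dpi. Of the 14865 gene models tested in that fit, 137 had a smaller effect and 18 a larger one. In the fit of all libraries 98 of the 122 members had a smaller EcM effect at 21 than at 14 dpi. The median difference was -0.48 over the members and -0.001 over all gene models tested.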

How the results depend on the processing

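The number of members depended on the rule. With TMM library sizes 144 gene models met it and all 122 members were among them, with 1 CPM added in place of 0.5 116 did, with 0.1 CPM 138, at a ratio of 2 182 and at 3 92. With each early library left out it was 75 to 133. Size factors by the median of ratios and no low-count filter kept every count of called members within 1.5 times. DESeq2 called 36 members in EcM and 8 in ExM against FLM at 14 dpi, 20 in ExM against FLM at 21 dpi, 8 and 5 in EcM against ExM at 14 and 21 dpi, 1 for the ExM effect between days and 14 for FLM of 14 dpi against T0. The fit of only the groups compared called 16 in EcM against FLM at 21 dpi, 34 in ExM against FLM at 14 dpi, 10 and 7 in EcM against ExM at 14 and 21 dpi, 8 and 6 for the EcM and ExM effects between days and 26 for FLM of 21 dpi against T0. The cause was not tested. Leaving out 1 library gave 8 to 29 in EcM and 0 to 0 in ExM against FLM at 14 dpi, 4 to 9 and 2 to 16 at 21 dpi, 0 to 4 and 2 to 5 in EcM against ExM at 14 and 21 dpi, 0 to 1 for both effects between days (the EcM call was lost without FLM replicate 3 of 21 dpi), and 2 to 12 and 9 to 13 for FLM of 14 and 21 dpi against T0. Where 1 library was left in a group it was assumed to vary like the other groups. Without T0 replicate 1 the differences of 312970 and 691907 between FLM of 14 dpi and T0 became 0.25 and 0.28, and without T0 replicate 2 -2.80 and -2.48. With the replicate number as a block the counts were 18 and 0 in EcM and ExM against FLM at 14 dpi, 7 and 8 at 21 dpi, 5 and 2 in EcM against ExM, 1 and 0 for the effects between days, and 7 and 12 against T0. Of the 75 members that met the rule without EcM replicate 1 of 7 dpi, an alternative added after the data were seen, 16 in EcM and 0 in ExM were called at 14 dpi and 8 in each at 21 dpi. For single genes, 143 of 392 checks without 1 library and 34 of 345 others lost the call. ExM at 14 dpi and T0 had 2 libraries each.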
